A study of Homo sapiens with 12 samples.

Results

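The genes described here are 40 interferon-stimulated genes, whose products carry out the antiviral state of a cell, and 3 of them encode transcription factors that switch such genes on. They were taken from a list of gene names, each gene by the probe set that carries its symbol alone and has the highest mean over all arrays. Of the 40, 39 were measured among 18417 genes, and STAT2 was not analysed here. RNA levels came from 12 arrays of Calu-3, a human airway epithelial cell line established from a lung adenocarcinoma.

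On 3 arrays the cells had received a mimic of the microRNA miR-138, on 3 arrays a small interfering RNA (siRNA) against SIN3A, and on 6 arrays NC1, a scrambled control RNA. Every group was transfected with the lipid reagent RNAiMAX, and no group without transfection was analysed here. The sources used here give no dose, no time after transfection and no sequence of the transfected RNAs. The labels call the arrays of a group biological replicates without naming separate cultures, so each p-value rests on how far these arrays scatter, and that scatter may be technical only. The extraction note speaks of primary cultures although the labels name Calu-3.

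Type I and type III interferons bind receptors whose kinases activate STAT proteins, and with IRF9 these form a complex that binds an interferon response element in the promoters of target genes. The targets include enzymes and binding proteins that sense, degrade or sequester viral RNA, block viral entry and modify proteins with the ubiquitin-like ISG15. Airway epithelium is a main site of this response, and foreign double-stranded RNA in the cytosol can start it through sensors such as RIGI and IFIH1. SIN3A holds together a repressor complex that contains histone deacetylases.

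The labels name the mimic as miR-138 and do not state the arm. The mature 5p arm is shown as the microRNA that the mimic is named for, with its seed (bases 2 to 8, which pair with target transcripts) in capitals. RefSeq (GRCh38.p14) places the same 23 bases at 2 loci, chr3:44114234-44114256 (+ strand) and chr16:56858527-56858549 (+ strand).
hsa-miR-138-5p: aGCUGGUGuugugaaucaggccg

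The core of the interferon response element was searched as GAAA, any 2 bases and GAAA on both strands, with overlapping matches allowed, in 300 bases of promoter sequence (250 before and 50 after the start of each gene) from RefSeq (GRCh38.p14). Of the 39 genes, 32 had a promoter in that table, and 23 of these 32 (71.9%) held the core. Among all genes of the table it was held by 1195 of 27305 (4.38%). A match describes the letters in the window and is no evidence of binding. The first set of windows is from the 4 genes that held the core and had the largest excess in mimic over siRNA cells, in the 60 bases around the match and upstream of the start, with the core in capitals (read on the other strand it is TTTC, any 2 bases and TTTC). They lie at chr1:78620350-78620409 (+ strand), chr2:6877607-6877666 (+ strand), chr1:78649729-78649788 (+ strand) and chr4:168318771-168318830 (- strand).
IFI44L: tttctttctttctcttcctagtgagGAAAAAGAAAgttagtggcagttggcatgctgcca
RSAD2: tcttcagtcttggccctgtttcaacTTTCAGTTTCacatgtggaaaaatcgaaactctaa
IFI44: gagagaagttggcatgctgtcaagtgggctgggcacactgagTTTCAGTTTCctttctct
DDX60: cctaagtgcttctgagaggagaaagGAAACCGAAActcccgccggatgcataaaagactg

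The second set is from the 4 genes that held the core and had the largest excess of siRNA cells over NC1 4 to 6. They lie at chr14:94110616-94110675 (+ strand), chr11:313975-314034 (+ strand), chr11:320861-320920 (- strand) and chr1:27672251-27672310 (- strand). Both sets hold the same core, and 3 of the 4 windows of the second set hold it at 2 places.
IFI27: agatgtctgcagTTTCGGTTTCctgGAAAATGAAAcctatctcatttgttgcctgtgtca
IFITM1: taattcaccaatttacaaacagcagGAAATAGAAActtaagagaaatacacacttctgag
IFITM3: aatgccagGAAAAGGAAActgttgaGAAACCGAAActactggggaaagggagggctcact
IFI6: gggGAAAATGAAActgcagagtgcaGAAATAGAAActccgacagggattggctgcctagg

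Values are log2 levels as the authors deposited them, so a difference of 1 is a doubling. Array medians were 5.09 to 5.16, and any pair of arrays correlated at 0.967 to 0.995 over genes. The epithelial markers (9 genes) averaged 7.73 to 7.81 on the mimic arrays, 7.83 to 7.96 on the siRNA arrays, 7.80 to 7.84 on NC1 1 to 3 and 7.86 to 7.87 on NC1 4 to 6. The leukocyte markers (6 genes) averaged between 4.20 and 4.38 on the arrays of all groups, the fibroblast markers (6 genes) between 4.38 and 4.56 and the endothelial markers (5 genes) between 4.01 and 4.25. Single markers varied about these means, with COL1A1 at 5.97 to 6.12 over all arrays and MUC1 at 5.80, 6.64 and 7.07 on NC1 1 to 3. By limma, MUC1 was lower in mimic cells than NC1 1 to 3, with a difference of -0.73 (adjusted p = 0.0428). ELF3 was lower in siRNA cells than NC1 4 to 6, with a difference of -0.38 (adjusted p = 0.014). No other marker was called in any contrast. Levels of different probe sets are not on a common scale, so presence of other cell types was not read from them. SIN3A read 5.93, 6.05 and 6.25 on the mimic arrays, 6.17, 5.88 and 6.03 on the siRNA arrays, 6.79, 6.71 and 6.36 on NC1 1 to 3, and 7.34, 7.16 and 7.11 on NC1 4 to 6. SIN3A was thus lower than every NC1 array with the siRNA and with the mimic alike, by limma at a log2 difference of -0.88 (SE 0.17, adjusted p = 0.0111) for the siRNA and -0.83 (SE 0.17, adjusted p = 0.0304) for the mimic. In bulk RNA, fewer cells of a type and less RNA per cell cannot be told apart.

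The interferon-stimulated genes stood at different levels within the NC1 control. Their mean level was 6.17 to 6.31 on the mimic arrays, 5.51 to 5.54 on the siRNA arrays, 6.07 to 6.20 on NC1 1 to 3 and 5.15 to 5.20 on NC1 4 to 6. The 4 sets of arrays therefore fell in the order mimic and NC1 1 to 3, then siRNA, then NC1 4 to 6, with an overlap between mimic and NC1 1 to 3 only. All 3 arrays of NC1 4 to 6 lay below all 3 of NC1 1 to 3 for 35 of the 39 genes, against 10.4% of all genes tested, and above them for 0 of the 39, against 12% of all genes. The median difference of NC1 4 to 6 minus NC1 1 to 3 was -0.87 over the 39 genes and -0.02 over all 18417 genes, and it ran from -2.43 for IFI27 to 0.10 for PLSCR1. The labels name no run, day or batch for these arrays, so what separates the parts of the control was not tested, and no p-value is given for this difference. Each treated group was therefore set against all 6 NC1 arrays and against each part.

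**Figure D1:**
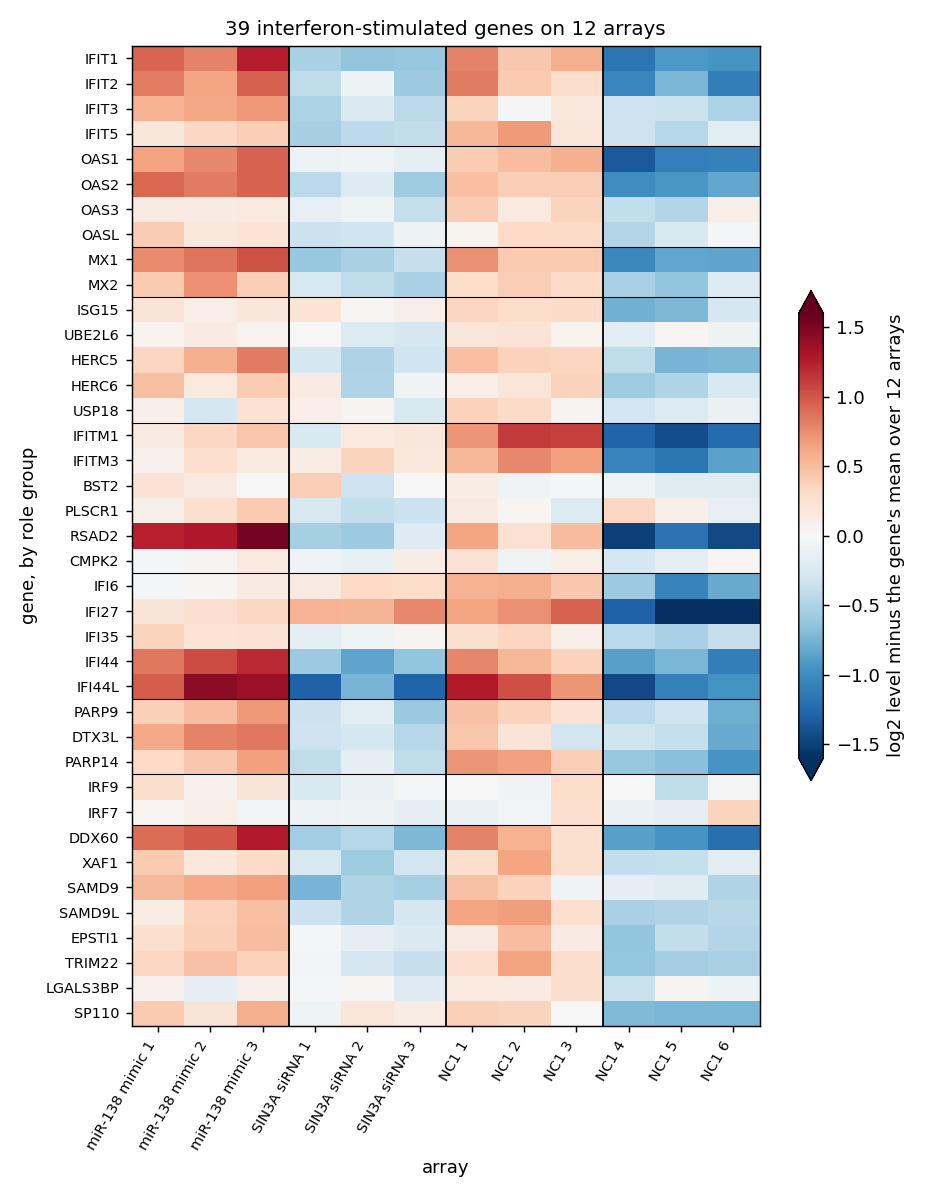
Log2 level of each of the 39 genes on each array, centred on the mean of the gene over the 12 arrays; columns are the miR-138 mimic, SIN3A siRNA, NC1 1 to 3 and NC1 4 to 6 arrays, and rows are ordered by role. NC1 4 to 6 lies below NC1 1 to 3 for most rows, the siRNA arrays lie between them for many rows, and the mimic arrays are close to NC1 1 to 3.

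Mimic cells held more RNA of the interferon-stimulated genes than NC1 4 to 6, and siRNA cells held less than NC1 1 to 3. Against the other part the medians were 0.11 for the mimic and 0.22 for the siRNA, and the parts themselves differed by -0.87. The division of NC1 was made with earlier results known, so the calls in these pairings cannot be told apart from the gap within the control. Here and below, rose and fell name calls against the stated part only. In mimic cells 30 of the 39 genes were higher and 0 lower than NC1 4 to 6 (limma, adjusted p under 0.05 over all genes), against 1.59% of all genes called higher and 1.89% called lower. At an unadjusted p under 0.05, 32 were higher and 0 lower. The median log2 difference was 0.95, with RSAD2 at 2.73, IFI44L at 2.42, DDX60 at 2.06 and IFIT1 at 2.00. All 3 mimic arrays lay above all 3 arrays of NC1 4 to 6 for 34 genes, against 9.72% of all genes. In siRNA cells 24 of the 39 genes were lower and 0 higher than NC1 1 to 3, against 2.04% of all genes called lower and 3.66% called higher, and 31 were lower and 0 higher at an unadjusted p under 0.05. Its median was -0.56, with IFI44L at -2.11, IFI44 at -1.25, IFIT1 at -1.19 and DDX60 at -1.10. All siRNA arrays lay below all arrays of NC1 1 to 3 for 30 genes, against 9.04% of all genes.

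The other pairings of a treated group with a part of the control gave other counts. Against NC1 1 to 3, mimic cells had 6 genes higher (IFIT3, OAS2, RSAD2, IFI44, DTX3L and DDX60) and 4 lower (IFITM1, IFITM3, IFI6 and IFI27), against 6.01% and 2.54% of all genes, with a median of 0.11. The count of higher genes was 2 without mimic replicate 3, 3 without NC1 replicates 2 or 3 and 9 without NC1 replicate 1, and that of lower genes was 2 without NC1 replicate 2 or mimic replicates 1 or 2. Against NC1 4 to 6, siRNA cells had 15 genes higher and 1 lower, PLSCR1, against 5.16% and 6.28% of all genes, with a median of 0.22. The siRNA arrays all lay above NC1 4 to 6 for 17 genes, against 14% of all genes. The count of higher genes was 10 without siRNA replicate 3, and PLSCR1 lost its call without any 1 of the siRNA arrays, NC1 replicates 4 or 5, or mimic replicate 2.

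With all 6 NC1 arrays as 1 group, the difference between its parts enters the error. Mimic cells then had 2 of the 39 genes higher, IFIT3 and DTX3L, and 0 lower, against 0.641% and 0.402% of all genes, and 19 were higher and 0 lower at an unadjusted p under 0.05. In 11 genes each mimic array exceeded each of the 6 NC1 arrays, against 3.89% of all genes, and these were IFIT1, IFIT3, OAS1, OAS2, MX1, MX2, RSAD2, IFI44, DTX3L, DDX60 and SAMD9. In siRNA cells 0 of the 39 genes were higher and 0 lower by limma, against 2.35% and 1.66% of all genes, with 0 higher and 5 lower at an unadjusted p under 0.05. All siRNA arrays lay below all 6 NC1 arrays for 1 gene, PLSCR1, against 3.53% of all genes, and above them for 0, against 5.49%. Both calls for the mimic were lost without any 1 of the siRNA or mimic arrays or without NC1 replicates 4 or 5, and IFIT3 also without NC1 replicates 2 or 6, while 5 genes were higher without NC1 replicate 1.

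Mimic cells can be set against siRNA cells directly, with no control in between. The mimic arrays all lay above the siRNA arrays for 30 of the 39 genes, against 13.3% of all genes, and the median difference was 0.61. With the NC1 arrays as 1 group in the fit, 5 genes were higher in mimic than in siRNA cells (IFIT3, PLSCR1, IFI44, DTX3L and SAMD9) and 0 lower, against 0.679% and 0.89% of all genes, with 24 higher and 0 lower at an unadjusted p under 0.05. That count was 1 without siRNA replicates 1 or 3 or any 1 mimic array, 2 without siRNA replicate 2 and 8 without NC1 replicate 3. With the parts of the control as separate means, the same differences had smaller errors and 24 genes were higher and 0 lower, against 3.26% and 2.6% of all genes. Measured from a part of the control on each side, a choice made after the data were seen, the count turned on the pairing. The mimic's difference from NC1 4 to 6 exceeded the siRNA's from NC1 1 to 3 for 31 genes and fell short for 0, against 0.896% and 1.19% of all genes. With the parts exchanged it exceeded it for 2 genes (PLSCR1 and SAMD9) and fell short for 8, against 8.62% and 5.02%. OAS1 and PARP14 were higher in mimic than in siRNA cells with the parts as separate means and were among those 8, at -0.77 (adjusted p = 0.00154) and -0.54 (adjusted p = 0.0484). The order in which the groups were handled is not in the labels, so a difference between runs and one between treatments cannot be told apart here.

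**Figure D2:**
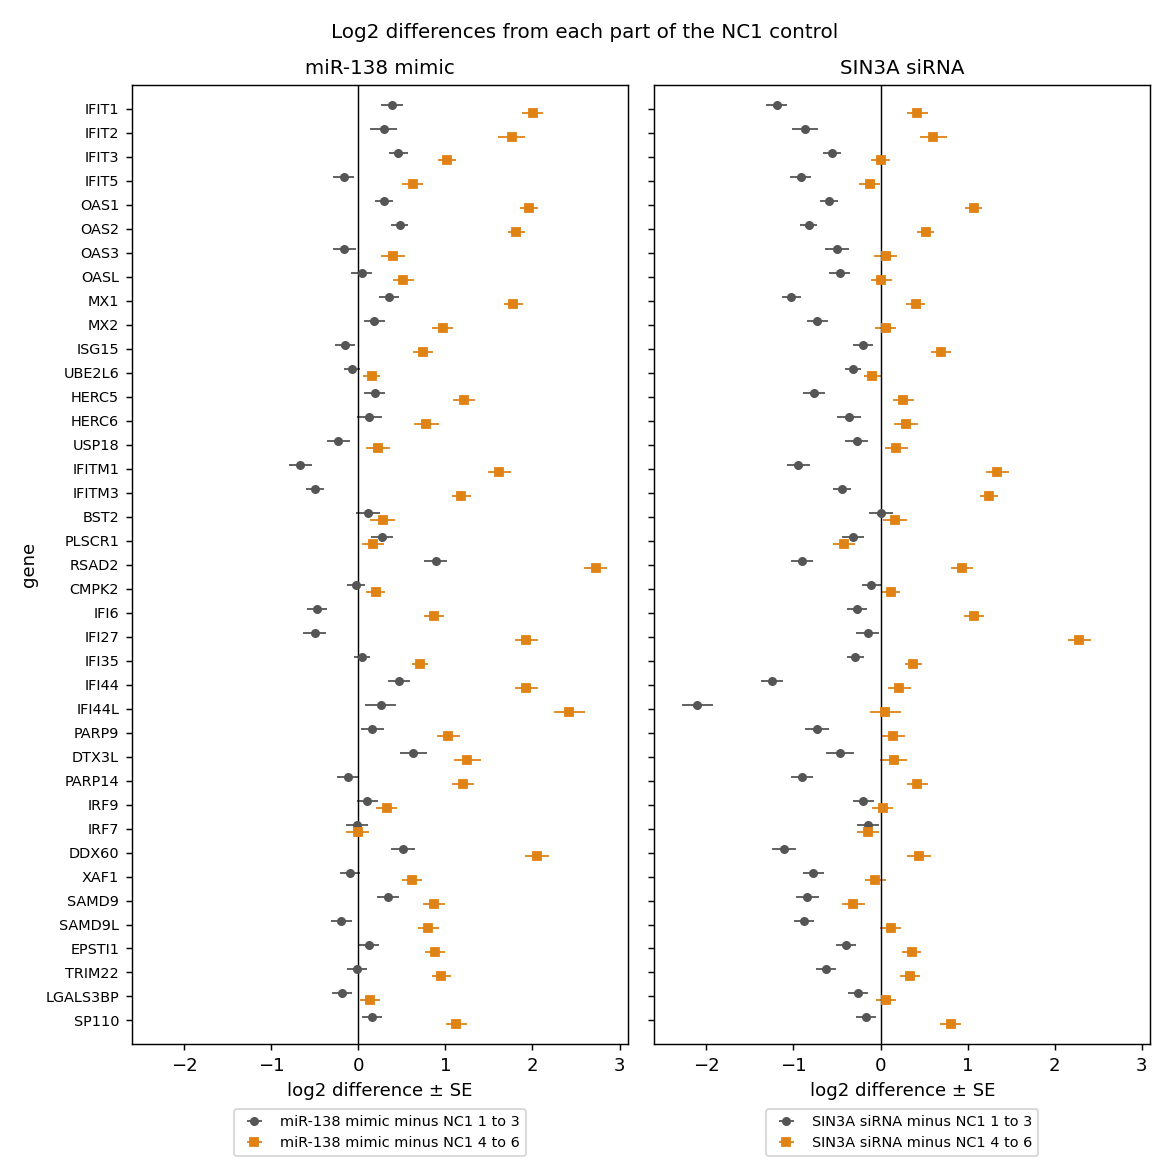
Log2 difference of the miR-138 mimic (left) and the SIN3A siRNA (right) from NC1 1 to 3 (circles) and NC1 4 to 6 (squares) for each of the 39 genes, with bars of 1 standard error from the limma fit with 4 group means. For the mimic the squares lie right of 0 for 38 genes, and for the siRNA the circles lie left of 0 for 38 genes.

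The IFIT proteins bind viral RNA that lacks the host's cap modifications and block its translation. All 4 measured members rose in mimic cells against NC1 4 to 6 and fell in siRNA cells against NC1 1 to 3. In the other pairings 2 of the 4 rose in siRNA cells against NC1 4 to 6, and 1 rose in mimic cells against NC1 1 to 3. IFIT1 read 6.98, 6.85 and 7.32 on the mimic arrays, 5.54, 5.43 and 5.45 on the siRNA arrays, 6.85, 6.50 and 6.64 on NC1 1 to 3, and 4.89, 5.14 and 5.11 on NC1 4 to 6. The lowest mimic array stood just above the highest NC1 array, and the siRNA arrays lay between the parts of the control. IFIT1 differed by 2.00 (SE 0.12, adjusted p = 8.29e-08) between mimic and NC1 4 to 6 and by -1.19 (SE 0.12, adjusted p = 4.88e-05) between siRNA and NC1 1 to 3. IFIT2 read 6.07, 5.88 and 6.21 on the mimic arrays, 4.84, 5.17 and 4.68 on the siRNA arrays, 6.08, 5.68 and 5.53 on NC1 1 to 3, and 4.21, 4.52 and 4.14 on NC1 4 to 6. For IFIT2 the mimic arrays overlapped NC1 1 to 3 at the top, and the siRNA arrays lay between the parts. Its differences were 1.76 (SE 0.15, adjusted p = 3.67e-06) for mimic against NC1 4 to 6 and -0.87 (SE 0.15, adjusted p = 0.00366) for siRNA against NC1 1 to 3. IFIT3 read 5.92, 5.99 and 6.06 on the mimic arrays, 4.86, 5.13 and 4.93 on the siRNA arrays, 5.72, 5.33 and 5.54 on NC1 1 to 3, and 5.03, 5.02 and 4.86 on NC1 4 to 6. IFIT3, which binds IFIT1 and stabilises it, was highest in every mimic array, while its siRNA arrays overlapped NC1 4 to 6. It was higher in mimic cells than on all NC1 arrays by 0.74 (SE 0.16, adjusted p = 0.0353), than on NC1 1 to 3 by 0.46 (SE 0.11, adjusted p = 0.0127) and than in siRNA cells by 1.02 (SE 0.18, adjusted p = 0.0126). The last of these calls was lost in 6 of 20 alternatives, with an adjusted p up to 0.0718. IFIT5, which also binds RNA ends, had 0.62 (adjusted p = 0.00535) for mimic against NC1 4 to 6 and -0.92 (adjusted p = 0.000398) for siRNA against NC1 1 to 3.

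The OAS enzymes sense double-stranded RNA and make oligoadenylates that switch on RNase L, while OASL has lost the enzyme activity and binds RIGI. Against NC1 4 to 6, 3 of the 4 rose in mimic cells (OAS1, OAS2 and OASL), and against NC1 1 to 3 all 4 fell in siRNA cells. The siRNA against NC1 4 to 6 had 2 of the 4 higher, and the mimic against NC1 1 to 3 had 1 higher. OAS1 read 8.19, 8.32 and 8.48 on the mimic arrays, 7.45, 7.47 and 7.40 on the siRNA arrays, 7.95, 8.04 and 8.11 on NC1 1 to 3, and 6.20, 6.45 and 6.47 on NC1 4 to 6. The siRNA arrays of OAS1 lay between the parts of the control and the mimic arrays above both. The differences of OAS1 were 1.96 (SE 0.10, adjusted p = 1.42e-08) for mimic against NC1 4 to 6, -0.59 (SE 0.10, adjusted p = 0.00273) for siRNA against NC1 1 to 3 and 1.07 (SE 0.10, adjusted p = 4.52e-06) for siRNA against NC1 4 to 6. OAS2 read 5.91, 5.82 and 5.93 on the mimic arrays, 4.56, 4.78 and 4.42 on the siRNA arrays, 5.47, 5.38 and 5.38 on NC1 1 to 3, and 3.99, 4.06 and 4.16 on NC1 4 to 6. OAS2 had the same order of sets, again without overlap. It was higher in mimic cells than on either part, by 1.82 (SE 0.10, adjusted p = 2e-08) over NC1 4 to 6 and 0.47 (SE 0.10, adjusted p = 0.00595) over NC1 1 to 3, and in siRNA cells it was lower than NC1 1 to 3, with a difference of -0.82 (SE 0.10, adjusted p = 0.000177). OAS3, which lies between OAS1 and OAS2 on chromosome 12, had 0.40 (adjusted p = 0.144) for mimic against NC1 4 to 6 and -0.50 (adjusted p = 0.0375) for siRNA against NC1 1 to 3. The siRNA calls of OAS3 and OASL were each lost on leaving out single arrays, with adjusted p up to 0.161 for OAS3 and 0.114 for OASL.

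The MX proteins are dynamin-like GTPases that trap viral components. Both rose in mimic cells against NC1 4 to 6 and fell in siRNA cells against NC1 1 to 3. In the other pairings 1 of the 2 rose in siRNA cells against NC1 4 to 6, and 0 passed in mimic cells against NC1 1 to 3. MX1 stood at 6.70, 6.80 and 6.97 on the mimic arrays, 5.34, 5.42 and 5.58 on the siRNA arrays, 6.68, 6.37 and 6.37 on NC1 1 to 3, and 4.92, 5.12 and 5.10 on NC1 4 to 6. Mimic arrays were above every NC1 array for MX1, and siRNA arrays lay between the parts. MX1 differed by 1.78 (SE 0.11, adjusted p = 8.29e-08) for mimic against NC1 4 to 6 and -1.02 (SE 0.11, adjusted p = 8.11e-05) for siRNA against NC1 1 to 3. MX2 stood at 5.59, 5.89 and 5.56 on the mimic arrays, 4.90, 4.76 and 4.64 on the siRNA arrays, 5.46, 5.56 and 5.47 on NC1 1 to 3, and 4.64, 4.54 and 4.96 on NC1 4 to 6. MX2 was also highest on the mimic arrays, by a narrow margin over NC1 1 to 3, but its siRNA arrays overlapped NC1 4 to 6. The log2 differences of MX2 were 0.97 (SE 0.12, adjusted p = 0.000135) for mimic against NC1 4 to 6 and -0.73 (SE 0.12, adjusted p = 0.00216) for siRNA against NC1 1 to 3.

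ISG15 is a ubiquitin-like protein that is joined to other proteins, UBE2L6 is its conjugating enzyme, HERC5 its main ligase in human cells, and USP18 removes it and also dampens interferon receptor signalling. Of these 5 genes with HERC6, 3 rose in mimic cells against NC1 4 to 6 (ISG15, HERC5 and HERC6), and 1 fell in siRNA cells against NC1 1 to 3 (HERC5). Also, 1 rose in siRNA cells against NC1 4 to 6, and 0 passed in mimic cells against NC1 1 to 3. ISG15 read 6.06, 5.94 and 6.03 on the mimic arrays, 6.07, 5.88 and 5.95 on the siRNA arrays, 6.19, 6.14 and 6.16 on NC1 1 to 3, and 5.09, 5.13 and 5.59 on NC1 4 to 6. The mimic and siRNA arrays of ISG15 overlapped each other just below NC1 1 to 3, and all lay above NC1 4 to 6. ISG15 was higher than NC1 4 to 6 in mimic cells by 0.74 (SE 0.12, adjusted p = 0.00109) and in siRNA cells by 0.70 (SE 0.12, adjusted p = 0.000747), and the difference between mimic and siRNA was 0.05 (adjusted p = 0.969). HERC5 read 4.88, 5.12 and 5.37 on the mimic arrays, 4.26, 4.04 and 4.22 on the siRNA arrays, 5.02, 4.90 and 4.88 on NC1 1 to 3, and 4.12, 3.79 and 3.82 on NC1 4 to 6. HERC5 overlapped between mimic and NC1 1 to 3 and between siRNA and NC1 4 to 6. It differed by 1.21 (SE 0.12, adjusted p = 1.95e-05) for mimic against NC1 4 to 6 and by -0.76 (SE 0.12, adjusted p = 0.0019) for siRNA against NC1 1 to 3. UBE2L6 and USP18 passed the test in none of the 7 contrasts, with differences for mimic against NC1 4 to 6 of 0.15 (adjusted p = 0.62) and 0.23 (adjusted p = 0.591).

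Among membrane and nucleotide effectors, RSAD2 (viperin) makes a chain-terminating nucleotide, CMPK2 is a mitochondrial nucleotide kinase, the IFITM proteins block virus fusion, BST2 tethers budding virions and PLSCR1 is a phospholipid scramblase. Of these 6 genes 3 rose and 1 fell in siRNA cells against NC1 4 to 6, and 1 rose and 2 fell in mimic cells against NC1 1 to 3. RSAD2 read 6.59, 6.62 and 6.87 on the mimic arrays, 4.81, 4.76 and 5.14 on the siRNA arrays, 5.98, 5.59 and 5.85 on NC1 1 to 3, and 3.85, 4.16 and 3.90 on NC1 4 to 6. RSAD2 was higher on each mimic array than on any NC1 array, and the siRNA arrays lay between the parts of the control. RSAD2 was higher in mimic cells than NC1 4 to 6 by 2.73 (SE 0.13, adjusted p = 8.74e-09) and than NC1 1 to 3 by 0.89 (SE 0.13, adjusted p = 0.000421). RSAD2 read under 5.29, the level used to leave out dim genes, on all siRNA arrays and all arrays of NC1 4 to 6. So did, among others, IFIT2, IFIT3, OAS2, MX2, HERC5, DTX3L and DDX60. In siRNA cells RSAD2 lay between the parts, with a difference of -0.90 (SE 0.13, adjusted p = 0.000731) from NC1 1 to 3 and 0.93 (SE 0.13, adjusted p = 0.000157) from NC1 4 to 6. IFITM3 read 6.83, 7.02 and 6.89 on the mimic arrays, 6.87, 7.11 and 6.93 on the siRNA arrays, 7.29, 7.52 and 7.42 on NC1 1 to 3, and 5.70, 5.59 and 5.89 on NC1 4 to 6. Mimic and siRNA arrays of IFITM3 overlapped each other and lay between the parts. The differences of IFITM3 from NC1 4 to 6 were 1.19 (SE 0.10, adjusted p = 3.95e-06) for the mimic and 1.24 (SE 0.10, adjusted p = 1.53e-06) for the siRNA, and from NC1 1 to 3 -0.50 (SE 0.10, adjusted p = 0.0066) and -0.44 (SE 0.10, adjusted p = 0.0203). IFITM1 followed the same pattern, at 1.62 (adjusted p = 1.67e-06) and 1.34 (adjusted p = 6.67e-06) from NC1 4 to 6 for mimic and siRNA. The IFITM genes are similar in sequence, and cross-hybridisation between their probe sets was not tested. PLSCR1 read 7.46, 7.62 and 7.78 on the mimic arrays, 7.11, 6.97 and 7.02 on the siRNA arrays, 7.51, 7.40 and 7.14 on NC1 1 to 3, and 7.69, 7.44 and 7.23 on NC1 4 to 6. PLSCR1 had no gap between the parts of the control, and its siRNA arrays were the lowest set. It was higher in mimic than in siRNA cells by 0.58 (SE 0.13, adjusted p = 0.0351), a call lost in 7 of 20 alternatives with an adjusted p up to 0.22. CMPK2 and BST2 passed the test in none of the 7 contrasts, with 0.20 (adjusted p = 0.512) and 0.28 (adjusted p = 0.451) for mimic against NC1 4 to 6.

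The IFI genes were first found as interferon-induced transcripts, and IFI6 and IFI27 encode small membrane proteins of mitochondria and other organelles. All 5 (IFI6, IFI27, IFI35, IFI44 and IFI44L) rose in mimic cells against NC1 4 to 6, and 2 fell in siRNA cells against NC1 1 to 3. Against the other part, 3 rose in siRNA cells (NC1 4 to 6), and 1 rose and 2 fell in mimic cells (NC1 1 to 3). IFI44 read 8.44, 8.65 and 8.80 on the mimic arrays, 7.02, 6.75 and 6.97 on the siRNA arrays, 8.38, 8.13 and 7.98 on NC1 1 to 3, and 6.73, 6.87 and 6.49 on NC1 4 to 6. Mimic arrays were above every NC1 array for IFI44, and siRNA arrays overlapped NC1 4 to 6. IFI44 was higher in mimic than in siRNA cells by 1.72 (SE 0.40, adjusted p = 0.0483), a call lost in 9 of 20 alternatives. The highest adjusted p among them, 0.423, came from the difference with the parts exchanged (0.25), which is another quantity. IFI44 was lower in siRNA cells than NC1 1 to 3, with a difference of -1.25 (SE 0.13, adjusted p = 4.88e-05). IFI44L read 7.07, 7.54 and 7.49 on the mimic arrays, 4.81, 5.36 and 4.82 on the siRNA arrays, 7.38, 7.13 and 6.80 on NC1 1 to 3, and 4.66, 5.02 and 5.15 on NC1 4 to 6. IFI44L, the neighbour of IFI44 and chosen here after its values were seen, split into a high pair of sets (mimic and NC1 1 to 3) and a low pair (siRNA and NC1 4 to 6). It differed by 2.42 (SE 0.18, adjusted p = 4.67e-07) for mimic against NC1 4 to 6 and by -2.11 (SE 0.18, adjusted p = 7.12e-06) for siRNA against NC1 1 to 3, and by 0.06 (adjusted p = 0.913) for siRNA against NC1 4 to 6. IFI27 read 7.10, 7.17 and 7.23 on the mimic arrays, 7.46, 7.44 and 7.66 on the siRNA arrays, 7.53, 7.62 and 7.84 on NC1 1 to 3, and 5.60, 4.97 and 5.14 on NC1 4 to 6. IFI27 differed from IFI44L in the siRNA arrays, which overlapped NC1 1 to 3 and lay above all mimic arrays. It was higher than NC1 4 to 6 by 2.28 (SE 0.14, adjusted p = 3.87e-08) in siRNA cells and by 1.93 (SE 0.14, adjusted p = 3.32e-07) in mimic cells, and the siRNA difference from NC1 1 to 3 was -0.15 (adjusted p = 0.61). The mimic's difference of IFI27 from NC1 1 to 3, -0.50 (adjusted p = 0.03), lost its call without NC1 replicates 2 or 3 or any mimic array. IFI6 had 1.07 (adjusted p = 1.06e-05) for siRNA and 0.87 (adjusted p = 0.000181) for mimic against NC1 4 to 6, and IFI35 had 0.38 (adjusted p = 0.0133) and 0.71 (adjusted p = 0.000228).

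PARP9 and DTX3L form a complex that joins ubiquitin and ADP-ribose to proteins, and PARP14 is a mono-ADP-ribosyltransferase. All 3 rose in mimic cells against NC1 4 to 6, and PARP9 and PARP14 fell in siRNA cells against NC1 1 to 3. Set against the other part, mimic cells had 1 of the 3 higher and siRNA cells 1 higher. DTX3L read 6.15, 6.33 and 6.38 on the mimic arrays, 5.21, 5.26 and 5.09 on the siRNA arrays, 5.98, 5.75 and 5.24 on NC1 1 to 3, and 5.22, 5.16 and 4.73 on NC1 4 to 6. DTX3L was highest on the mimic arrays, and its siRNA arrays overlapped both parts of the control. It was higher in mimic cells than on all NC1 arrays by 0.94 (SE 0.20, adjusted p = 0.0338), than on NC1 1 to 3 by 0.63 (SE 0.16, adjusted p = 0.0196) and than in siRNA cells by 1.10 (SE 0.23, adjusted p = 0.0291). The last call was lost in 7 of 20 alternatives. The highest adjusted p among them, 0.185, came from the difference with the parts exchanged (0.48), which is another quantity. PARP14 read 7.16, 7.27 and 7.50 on the mimic arrays, 6.44, 6.71 and 6.44 on the siRNA arrays, 7.55, 7.50 and 7.24 on NC1 1 to 3, and 6.24, 6.18 and 5.91 on NC1 4 to 6. PARP14 overlapped between mimic and NC1 1 to 3, with the siRNA arrays between the parts of the control. Its differences were 1.20 (SE 0.12, adjusted p = 2.14e-05) for mimic against NC1 4 to 6 and -0.90 (SE 0.12, adjusted p = 0.000541) for siRNA against NC1 1 to 3. For PARP9 the same differences were 1.03 (adjusted p = 0.000194) and -0.73 (adjusted p = 0.00445).

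IRF9 is the DNA-binding subunit of the complex that interferon forms with STAT proteins, and IRF7 drives interferon genes themselves. IRF9 read 6.20, 6.00 and 6.13 on the mimic arrays, 5.68, 5.82 and 5.91 on the siRNA arrays, 5.92, 5.87 and 6.22 on NC1 1 to 3, and 5.92, 5.52 and 5.91 on NC1 4 to 6. IRF9 overlapped between the siRNA arrays and both parts of the control, and its mimic arrays lay above NC1 4 to 6 by a small margin. IRF7 read 6.08, 6.15 and 6.01 on the mimic arrays, 5.96, 5.97 and 5.91 on the siRNA arrays, 5.94, 6.01 and 6.32 on NC1 1 to 3, and 5.95, 5.91 and 6.41 on NC1 4 to 6. IRF7 overlapped in all comparisons with NC1. Neither gene passed the test in any of the 7 contrasts, and the mimic's differences from NC1 4 to 6 were 0.33 (adjusted p = 0.218) and -0.01 (adjusted p = 0.995).

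Among the other effectors DDX60 is a helicase that assists RNA sensing, SAMD9 and SAMD9L restrict poxviruses, XAF1 promotes apoptosis, TRIM22 is a ubiquitin ligase and SP110 a nuclear body protein. Of 8 such genes 7 rose in mimic cells against NC1 4 to 6 (LGALS3BP, a secreted glycoprotein, did not pass), and 6 fell in siRNA cells against NC1 1 to 3. Set against the other part, siRNA cells had 2 of the 8 higher and mimic cells 1 higher. DDX60 read 6.33, 6.43 and 6.70 on the mimic arrays, 4.89, 4.99 and 4.73 on the siRNA arrays, 6.23, 5.99 and 5.69 on NC1 1 to 3, and 4.57, 4.49 and 4.23 on NC1 4 to 6. Mimic arrays topped every NC1 array for DDX60, and siRNA arrays lay between the parts. DDX60 differed by 2.06 (SE 0.14, adjusted p = 2.11e-07) for mimic against NC1 4 to 6 and -1.10 (SE 0.14, adjusted p = 0.000271) for siRNA against NC1 1 to 3. SP110 read 7.48, 7.26 and 7.63 on the mimic arrays, 6.98, 7.25 and 7.18 on the siRNA arrays, 7.44, 7.42 and 7.05 on NC1 1 to 3, and 6.35, 6.32 and 6.33 on NC1 4 to 6. SP110 separated NC1 4 to 6 from all other sets, the mimic arrays lay above the siRNA arrays, and NC1 1 to 3 overlapped both. It was higher than NC1 4 to 6 in mimic cells by 1.12 (SE 0.12, adjusted p = 2.61e-05) and in siRNA cells by 0.80 (SE 0.12, adjusted p = 0.000272). SAMD9 read 8.08, 8.17 and 8.22 on the mimic arrays, 6.81, 7.08 and 7.03 on the siRNA arrays, 8.02, 7.92 and 7.51 on NC1 1 to 3, and 7.42, 7.37 and 7.08 on NC1 4 to 6. SAMD9 was highest on the mimic arrays, and its siRNA arrays lay below NC1 1 to 3 and met the lowest array of NC1 4 to 6. It was higher in mimic than in siRNA cells by 1.18 (SE 0.19, adjusted p = 0.00717) and lower in siRNA cells than NC1 1 to 3, with a difference of -0.84 (SE 0.13, adjusted p = 0.00138). For mimic against NC1 4 to 6 the log2 differences of SAMD9L, XAF1, TRIM22 and EPSTI1 were 0.80, 0.62, 0.95 and 0.88, all called. For siRNA against NC1 1 to 3 they were -0.88, -0.77, -0.63 and -0.40, all called, but EPSTI1 lost its call in most alternatives, with an adjusted p up to 0.179.

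**Figure D3:**
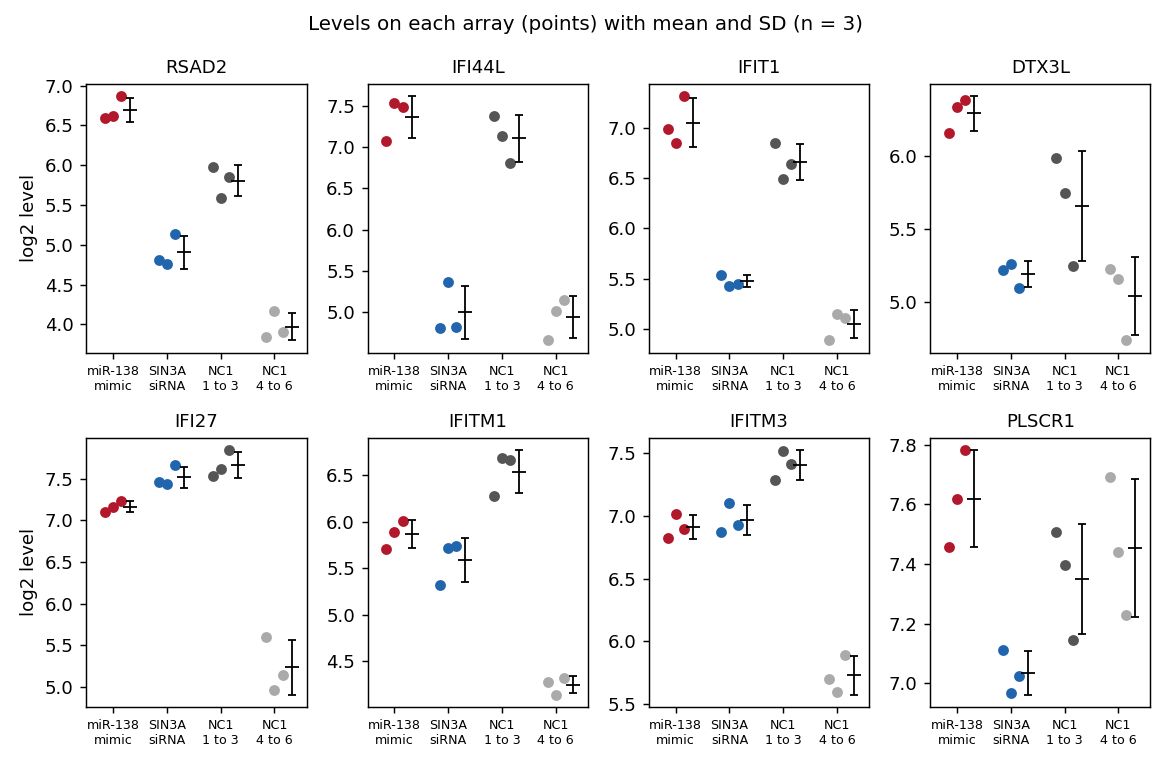
Log2 level on each array (points) of selected interferon-stimulated genes by group, with the mean and SD of each set of 3 arrays; groups run miR-138 mimic, SIN3A siRNA, NC1 1 to 3, NC1 4 to 6. RSAD2 is highest on the mimic arrays at 6.59 to 6.87, IFI27 is highest on NC1 1 to 3 and the siRNA arrays, and NC1 4 to 6 is low in both.

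The genes with a wide gap inside the control did not all take the same place in it. For 15 genes NC1 1 to 3 exceeded NC1 4 to 6 by at least 1 on the log2 scale, and the means of the treated groups were placed on a scale with 0% at NC1 4 to 6 and 100% at NC1 1 to 3. The siRNA mean lay at 93.9% for IFI27, 79.9% for IFI6, 73.8% for IFITM3 and 64.3% for OAS1, against 14.7% for IFI44 and 2.57% for IFI44L. In all, 6 of the 15 lay at or over 50% and 9 under it. The mimic mean lay at or over 100% for 10 of the 15, up to 148% for RSAD2, and below it for 5. The 5 were PARP14 (90.7%), IFI27 (79.4%), IFITM1 (70.8%), IFITM3 (70.5%) and IFI6 (64.8%). Thus IFI27, IFI6 and IFITM3 had mimic minus siRNA differences of -0.35, -0.20 and -0.06, none past the test, while IFI44L had 2.37 and RSAD2 1.79. With NC1 as 1 group in the fit, neither IFI44L nor RSAD2 passed, with RSAD2 at SE 0.50 and adjusted p = 0.0869 (limma). With the parts as separate means the gap is taken out of the error, and both were among the 24 genes called. The genes were picked by the gap, so these places are a description without a test.

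**Figure D4:**
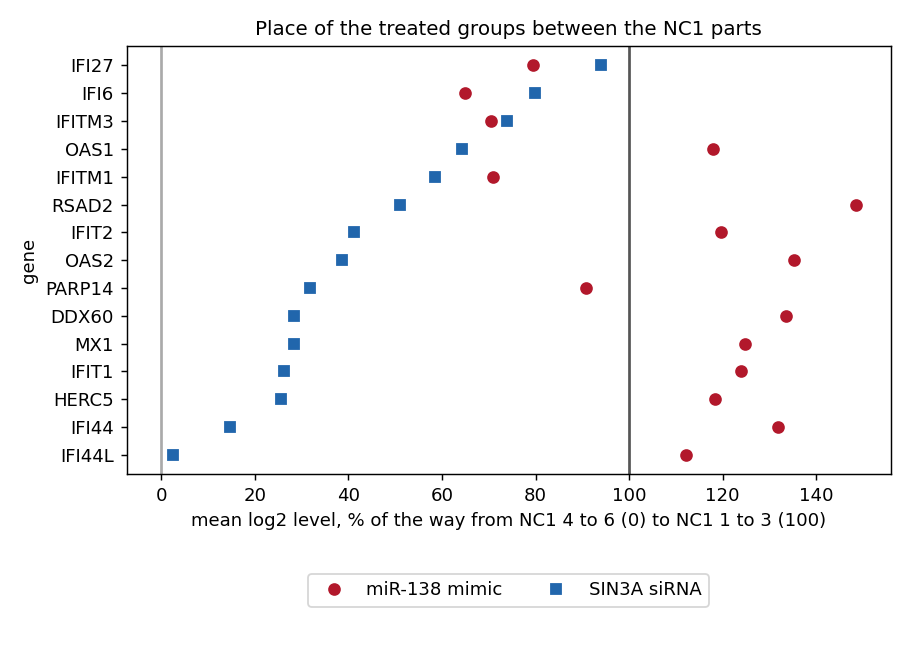
Mean log2 level of the miR-138 mimic (circles) and SIN3A siRNA (squares) for the 15 genes with a gap of at least 1 between the parts of NC1, as a percentage with 0 at NC1 4 to 6 and 100 at NC1 1 to 3. The siRNA runs from 2.57% for IFI44L to 93.9% for IFI27, and the mimic from 64.8% for IFI6 to 148% for RSAD2.

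Counted in both directions, 15 of the 39 genes had all siRNA arrays strictly between the parts of the control, against 0.608% of all genes. 10 genes were called lower than NC1 1 to 3 and higher than NC1 4 to 6 in siRNA cells, against 0.13% of all genes, among them IFIT1, OAS1, OAS2, MX1 and RSAD2. For the mimic 4 genes did so (IFITM1, IFITM3, IFI6 and IFI27), against 0.0814%, and 6 were higher than both parts, against 0.619%. The genes higher in mimic cells than both parts were IFIT3, OAS2, RSAD2, IFI44, DTX3L and DDX60. A gene can lie strictly between the parts only where NC1 4 to 6 lies wholly below NC1 1 to 3. That held for 35 of the 39 genes, against 10.4% of all genes. Being called lower than NC1 1 to 3 and higher than NC1 4 to 6 likewise needs a gap in the means. For these counts the share of all genes is therefore no like measure. All these counts share their control arrays with the comparisons with each part and are not separate evidence.

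Of the 39 genes, 11 pairs are neighbours on their chromosomes, and several differed in size. RSAD2 and CMPK2 lie next to each other on chromosome 2, with differences for mimic against NC1 4 to 6 of 2.73 and 0.20. OAS1, OAS3 and OAS2 follow each other on chromosome 12, with 1.96, 0.40 and 1.82 in the same comparison. IFIT1 and IFIT5 on chromosome 10 had 2.00 and 0.62, and MX2 and MX1 on chromosome 21 had 0.97 and 1.78. Closer pairs were PARP9 and DTX3L on chromosome 3 at 1.03 and 1.25, and SAMD9 and SAMD9L on chromosome 7 at 0.87 and 0.80. Only the differences are set side by side.

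Read by the promoter letters, genes with and without the response element core were both called, and the counts turned on the part of the control. Of the 23 genes with the core 19 rose in mimic cells against NC1 4 to 6 (median 1.19), and of the 9 without it 6 did (median 0.71). Against NC1 1 to 3, siRNA cells had 16 of the 23 lower (median -0.73), and 3 of the 9 (median -0.32). In the other pairings, mimic cells had 5 of the 23 higher and 4 lower than NC1 1 to 3 (median 0.16), and 0 of the 9 called. Against NC1 4 to 6, siRNA cells had 10 of the 23 higher and 1 lower (median 0.26), and 3 of the 9 higher (median 0.12). The other 7 genes had no promoter in the table: IFIT2, OAS2, OASL, MX2, USP18, IRF7 and TRIM22. No test was made of the difference between these counts.

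Genes of the interferon pathway outside the list of effectors were followed in a separate list of 42, of which 40 were measured and the others were not analysed here. Among RNA sensors and their partners, EIF2AK2 (PKR), a kinase that stops translation on double-stranded RNA, was called in 6 of the 7 contrasts. EIF2AK2 read 8.0, 8.24 and 8.35 on the mimic arrays, 6.70, 6.87 and 6.83 on the siRNA arrays, 7.71, 7.61 and 7.18 on NC1 1 to 3, and 7.47, 7.29 and 6.97 on NC1 4 to 6. The mimic arrays of EIF2AK2 were above all NC1 arrays and the siRNA arrays below all of them. Against all NC1 it differed by 0.83 (SE 0.14, adjusted p = 0.00999) in mimic and -0.57 (SE 0.14, adjusted p = 0.0356) in siRNA cells, and between mimic and siRNA by 1.40 (SE 0.16, adjusted p = 0.00112). ADAR, which edits double-stranded RNA, and TBK1, a kinase that activates IRF3, were higher in mimic cells than on all NC1 arrays by 0.56 (SE 0.11, adjusted p = 0.0299) and 0.56 (SE 0.11, adjusted p = 0.0288). These last genes were chosen for naming after their values were seen. IFIH1 read 7.64, 7.81 and 8.15 on the mimic arrays, 7.19, 7.30 and 7.34 on the siRNA arrays, 7.93, 7.56 and 7.52 on NC1 1 to 3, and 6.64, 6.74 and 5.77 on NC1 4 to 6. IFIH1 (MDA5) overlapped between mimic and NC1 1 to 3, and its siRNA arrays lay between the parts. It was higher than NC1 4 to 6 by 1.48 (SE 0.20, adjusted p = 0.00028) in mimic and 0.89 (SE 0.20, adjusted p = 0.00693) in siRNA cells. RIGI differed by 0.87 (adjusted p = 0.00117) for mimic against NC1 4 to 6 and -0.48 (adjusted p = 0.0498) for siRNA against NC1 1 to 3. Calls of pathway genes, here and below, were not followed through the alternatives, so how firm they are was not tested. Among the effectors, IFIT3 and DTX3L were called for mimic against all NC1 at adjusted p of 0.0353 and 0.0338 (limma). They lost these calls in 10 and 8 of 18 alternatives.

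Against all NC1, mimic cells had 3 of the 40 pathway genes higher and 0 lower, against 0.641% and 0.402% of all genes (limma). In siRNA cells 0 were higher and 2 lower (IFNE and EIF2AK2), against 2.35% and 1.66% of all genes. At an unadjusted p under 0.05 the mimic had 5 higher and 2 lower and the siRNA 3 higher and 4 lower. Against NC1 4 to 6, mimic cells had 5 higher and 1 lower, against 1.59% and 1.89% of all genes, and siRNA cells 5 higher and 2 lower, against 5.16% and 6.28%. Against NC1 1 to 3, mimic cells had 4 higher and 2 lower, against 6.01% and 2.54%, and siRNA cells had 3 lower, against 2.04%. Several of these counts are close to the share of all genes called. Most of the genes called in mimic cells came from the list on RNA sensing. TLR3 read 4.67, 4.99 and 4.98 on the mimic arrays, 4.61, 4.70 and 4.67 on the siRNA arrays, 5.84, 5.52 and 5.56 on NC1 1 to 3, and 4.77, 4.99 and 4.97 on NC1 4 to 6. TLR3, an endosomal sensor, was high on NC1 1 to 3 only. Its difference from NC1 1 to 3 was -0.76 (SE 0.11, adjusted p = 0.000434) in mimic and -0.98 (SE 0.11, adjusted p = 0.000119) in siRNA cells. IFNB1 read 2.92, 2.70 and 2.72 on the mimic arrays, 2.86, 2.92 and 2.63 on the siRNA arrays, 3.08, 3.33 and 3.07 on NC1 1 to 3, and 2.90, 2.59 and 3.26 on NC1 4 to 6. For IFNB1, the gene of interferon beta, both treated groups lay below NC1 1 to 3 and inside the range of NC1 4 to 6. None of IFNB1, IFNG and the interferon lambda genes IFNL1, IFNL2 and IFNL3 passed the test in any of the 7 contrasts. IFNB1 and IFNG were dim, at 2.59 to 3.33 and 2.94 to 3.63 over all arrays, well under 5.29. For these genes the lack of a call does not show that their RNA was unchanged. IFNE passed the test but was dim, at 2.75 to 3.84 over all arrays and at the same 3.00 on each mimic array, and the size of its difference is not given. None of the 7 brakes of the pathway, among them SOCS1 and SOCS3, passed in any contrast. Of the receptors IFNAR1 differed by 0.70 (adjusted p = 0.0121) and IFNGR1 by -0.44 (adjusted p = 0.0312) between mimic cells and NC1 1 to 3. Between siRNA cells and NC1 4 to 6, IFNAR2 differed by 0.48 (adjusted p = 0.0248) and IFNGR1 by 0.43 (adjusted p = 0.0292).

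**Figure D5:**
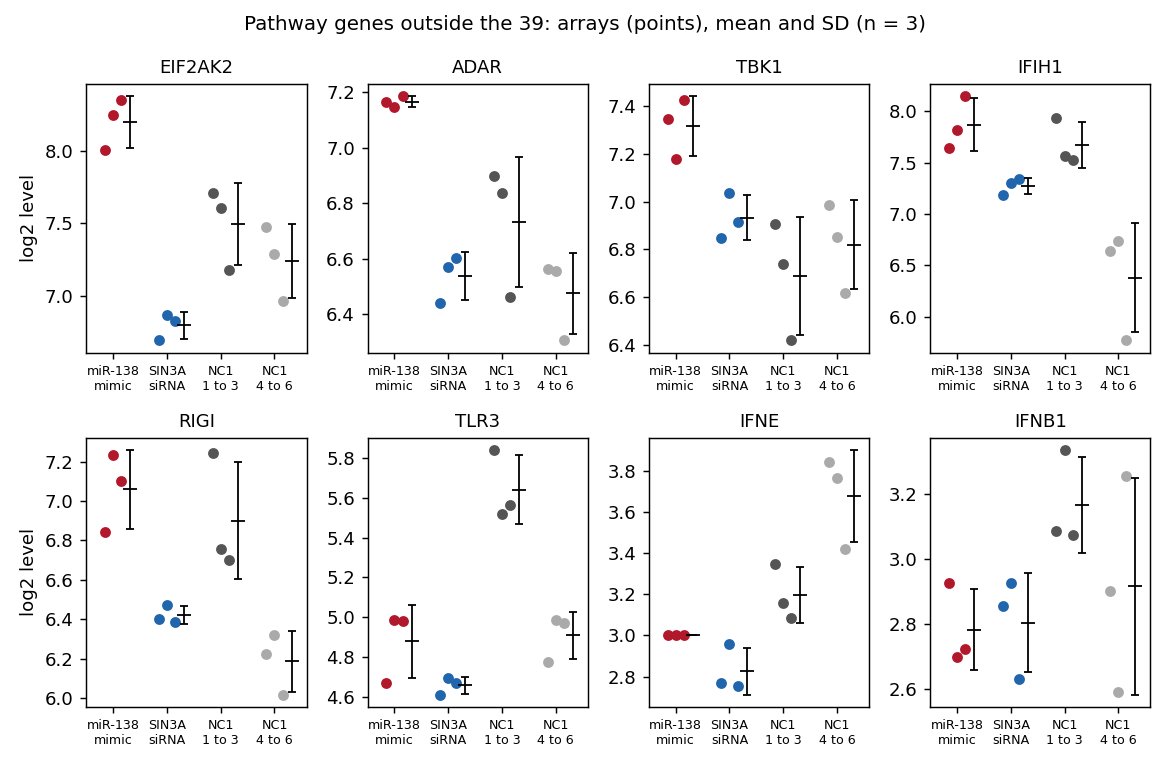
Log2 level on each array (points) of 8 pathway genes outside the effector list, with the mean and SD of each set of 3 arrays, ordered miR-138 mimic, SIN3A siRNA, NC1 1 to 3, NC1 4 to 6. EIF2AK2 is highest on the mimic arrays (8.0 to 8.35) and lowest on the siRNA arrays (6.70 to 6.87), while both treated groups of IFNB1 lie inside the range of NC1 4 to 6.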

How the data were processed

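RNA of 12 arrays was labelled from 5 µg of total RNA each, per the labels' protocols. The deposited values are log2 levels per probe set and array, and the authors made them with RMA and Partek 6.3, per the submitters' processing notes, which do not say which step each did. They were used as deposited, with medians of 5.09 to 5.16. By the platform annotation 19460 of 33297 probe sets name 1 gene, 1754 name more than 1 and 12083 name none (RIGI was matched through an older symbol). This gave 18417 genes, and arrays give no counts, so their number limits the precision.

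limma 3.58.1 under R 4.3.3 fitted 3 group means (9 residual degrees of freedom) for contrasts with all NC1 arrays and between treatments, and 4 means, with NC1 1 to 3 and NC1 4 to 6 apart (8 residual degrees of freedom), for contrasts with each part. P-values were adjusted by Benjamini-Hochberg over all 18417 genes, with calls under 0.05. The fits were tested on simulated data that held no gap between the parts of NC1, so that test does not cover the effect of the gap. The 39 genes, the lists and the division of NC1, which the labels do not name, were chosen with earlier results of these data known. Values per array are given for the 2 genes of each role group with the smallest adjusted p, for genes called between treatments, and for IFI44L. Alternatives were a second normalization, averaged probe sets (each of the 39 genes has 1 with its symbol alone), a filter on dim genes, robust variances, the replicate block, fewer arrays and each array left out. For mimic against siRNA they also held the mimic's difference from 1 part set against the siRNA's from the other, both ways round. This is another quantity, chosen after the data were seen. IFIT3, PLSCR1, IFI44 and DTX3L each lost the call in 1 of these pairings. Calls were followed through the alternatives for the 39 genes only, and not for the pathway genes. Same-numbered arrays of different groups correlated in their deviations at -0.10 to 0.03 over 9 pairs, so numbers were not taken to pair arrays. Figures used matplotlib 3.10.9.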

Additional observations from a re-analysis of the deposited data

How the results depend on the processing

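Against NC1 4 to 6 the number of genes higher with the mimic stayed between 29 and 31 on leaving out any 1 array, with 0 lower throughout, and 29 of the 30 calls were kept in all alternatives that tested them; OASL lost its call on leaving out NC1 replicates 4 or 5 or mimic replicates 1 or 3. Against NC1 1 to 3 the siRNA had between 21 and 25 lower and 0 higher, and 19 of the 24 calls were kept in all that tested them, OAS3, OASL, IFITM3, IFIT3 and EPSTI1 being lost in at least 1. The siRNA had between 10 and 16 higher and 0 to 1 lower than NC1 4 to 6, with 9 of 16 calls kept in all, and the mimic 2 to 9 higher and 2 to 4 lower than NC1 1 to 3, with 4 of 10 kept in all. Fitting only the 6 arrays of that last contrast left 3 higher. The same kind of fit for the siRNA against NC1 1 to 3 left 19 lower, under its range on leaving out arrays. Against all NC1, leaving out an array gave the mimic 0 to 5 higher and 0 lower and the siRNA 0 higher and 0 to 1 lower, and between mimic and siRNA it gave 1 to 8 higher and 0 lower. Kept in all were 0 of the mimic's 2 calls against all NC1 and 1 of the 5 between mimic and siRNA. The 9209 genes left by the filter on dim genes held 27 of the 39, so the other 12 had no test there. A second quantile normalization gave the siRNA 1 gene lower than all NC1.

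With the replicate block, which used the arrays numbered 1 to 3, the mimic had 4 genes higher and 4 lower than NC1, the siRNA 23 lower, and mimic against siRNA 24 higher; this fit leaves out NC1 4 to 6 by its construction. With the parts of NC1 as separate means the mimic had 24 higher than their average, the siRNA 3 higher and 8 lower, and mimic against siRNA 24 higher, the last against 3.26% of all genes. For the replicate block and for the average of the parts the share of all genes was not counted. Those counts are therefore not read as a result about the 39 genes. As chosen after the data were seen, the mimic's difference from NC1 4 to 6 was set against the siRNA's from NC1 1 to 3, which gave 31 genes higher with the mimic, and with the parts exchanged 2 were higher and 8 lower. The series lists its arrays in the order NC1 1 to 3, siRNA, NC1 4 to 6 and mimic. The pairings given first above are neighbours in that order, which is no record of handling. The labels do not say which arrays were handled together, so the choice between these pairings cannot be made here. The 8 lower genes were not among the 5 called higher between mimic and siRNA with NC1 as 1 group. Of the 24 higher with the parts apart, 14 turned below 0 with the parts exchanged, and 2 of these, OAS1 and PARP14, were called lower. Averaging probe sets could not alter the values of the 39 genes, of which 0 had more than 1 probe set with that symbol alone.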
